A study of Rattus norvegicus with 8 samples.

Results

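The troponin genes encode the calcium switch of the striated muscle thin filament, and 8 of them were read out in the eye-moving (extraocular) muscles of the rat. They were taken as every probe set whose only gene symbol was a troponin C, I or T gene, which gave 11 probe sets of 31042 on the array. The hyperthyroid group held 4 arrays from adult Sprague-Dawley rats given the thyroid hormone T3 (triiodothyronine) into the abdominal cavity, at 25 µg for every 100 g they weighed, on alternate days for 6 weeks, with the muscles taken 24 hours after the last dose. The control group held 4 arrays from untreated rats of the same strain, and a vehicle injection is not described for them in the sources used here. Body weight at the start was 200 ± 40 g in both groups. The arrays are called hyperthyroid 1, 2, 3 and 5 and control 7, 8, 9 and 11, after the numbers in their titles. The study design names 8 rats, as many as there are arrays, but the labels do not tie an array to a rat, so the p-values measure only the spread between these arrays.

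Troponin is a complex of 3 subunits. Troponin C binds calcium, troponin I holds the filament in its inhibited state, and troponin T anchors the complex to tropomyosin. Fast fibres use Tnnc2, Tnni2 and Tnnt3. Slow fibres use Tnnc1, Tnni1 and Tnnt1, of which Tnnc1 also serves the heart. The heart adds Tnni3 and Tnnt2, and Tnnt2 is also made in developing skeletal muscle before the adult isoforms replace it. Thyroid hormone is known in limb muscle for moving fibres towards fast isoforms. Extraocular muscles keep myosins that other adult muscles lack, among them Myh13.

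The array labelled hyperthyroid 5 departed from its label as extraocular muscle. Myh13, the extraocular myosin heavy chain, had an intensity of 4.17 on it, against 5430 to 9340 on the other 7 arrays, and the limb-position gene Hoxa10 stood at 398.5, against at most 27.8. General muscle markers were present on every array, with Ckm, the muscle creatine kinase, at 26322 on hyperthyroid 5 and 18812 to 28035 on the others. Hyperthyroid 2 and 5 were both low in the oligodendrocyte gene Mobp (15.3 and 1.37, against at least 1249 elsewhere). The summed adipocyte markers (Adipoq, Plin1, Lep and Cfd) ran from 217.5 on hyperthyroid 2 to 7396 on hyperthyroid 5, against 674.0 to 1771 on the controls. Gapdh signal at the 3 prime end over that at the 5 prime end, a ratio that grows as RNA breaks down, was 3.91, 4.40, 2.18 and 1.44 on hyperthyroid 1, 2, 3 and 5, and 1.67 to 1.97 on the controls. The differences between groups are therefore given with and without hyperthyroid 5. In this bulk tissue, fewer fibres of a type and less RNA per fibre cannot be told apart.

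No troponin passed the test between hyperthyroid and control arrays. Of the 11 probe sets, 9 lay above the filter level (an intensity of 28.2, which kept the upper 60% by mean log2 signal) and were tested with limma. At an adjusted p under 0.05 over all 18625 probe sets tested, 0 of the 9 were called, and 0% of all probe sets were. At an unadjusted p under 0.05, 0 of the 9 counted, against 11.5% of all tested. The adjusted p of the troponins ran from 0.491 to 0.979. Without hyperthyroid 5, 0 of the 9 were called, against 0.156% of all probe sets, and 2 of the 9 had an unadjusted p under 0.05 (Tnni2 and the brighter Tnnt3 probe set, both lower in hyperthyroid), against 15.2%. Without both hyperthyroid 2 and 5, 0 of the 9 were called, against 0.0483%, and 3 had an unadjusted p under 0.05, against 12.9%. A p that misses the threshold does not show that levels were alike, so the intervals are given below. Intensities of different probe sets have no common scale, and no level of one gene is set against that of another. Sums of marker intensities add such probe sets, so the brightest weigh most in them.

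**Figure D1:**
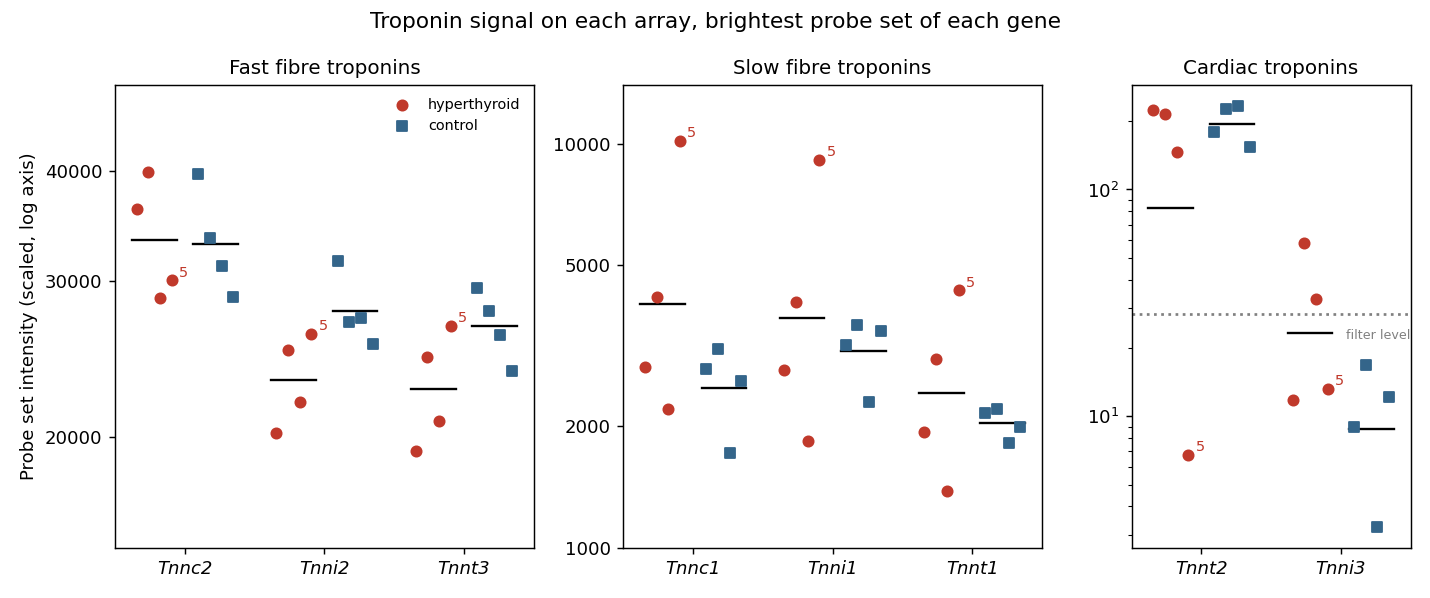
Intensity (log axis) of the brightest probe set of each troponin gene on each array, with hyperthyroid arrays as red circles, control arrays as blue squares, black bars at the geometric mean of each group, and array hyperthyroid 5 marked with its number. Hyperthyroid 5 is the highest of 8 arrays for Tnnc1, Tnni1 and Tnnt1 and the lowest for Tnnt2 (6.76), while for Tnnc2, Tnni2 and Tnnt3 it lies within the range of the control arrays.

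Promoter sequence was taken from RefSeq (build GRCr8) for 6 of the 8 genes, with no entry for Tnnc1 and Tnnt3, and 4 windows are shown as those of the genes the results turn on: the slow pair that was high together on hyperthyroid 5, the cardiac gene that was low there, and a fast gene that was lowest on hyperthyroid 1. Each runs 5′ to 3′ over the 250 bases before the annotated start, on the plus strand. Capitals mark, on either strand, the E-box CANNTG bound by myogenic factors, the MCAT element CATTCC bound by TEAD factors, the half-site AGGTCA bound by thyroid hormone receptors, and the TATA box TATAAA. The MEF2 consensus was also searched, on both strands, and none of the 4 windows held it.
Tnni1 (chr13:49781279-49781528): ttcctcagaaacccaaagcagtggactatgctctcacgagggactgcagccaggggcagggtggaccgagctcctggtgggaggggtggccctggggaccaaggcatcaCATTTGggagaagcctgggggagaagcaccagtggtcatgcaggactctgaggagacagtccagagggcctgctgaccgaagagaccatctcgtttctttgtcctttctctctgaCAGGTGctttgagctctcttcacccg
Tnnt1 (chr1:78348785-78349034): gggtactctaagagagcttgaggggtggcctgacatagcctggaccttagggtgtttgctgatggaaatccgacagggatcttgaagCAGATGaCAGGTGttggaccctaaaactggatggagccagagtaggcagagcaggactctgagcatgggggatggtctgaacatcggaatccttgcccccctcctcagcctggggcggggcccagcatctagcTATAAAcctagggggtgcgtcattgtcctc
Tnnt2 (chr13:49818873-49819122): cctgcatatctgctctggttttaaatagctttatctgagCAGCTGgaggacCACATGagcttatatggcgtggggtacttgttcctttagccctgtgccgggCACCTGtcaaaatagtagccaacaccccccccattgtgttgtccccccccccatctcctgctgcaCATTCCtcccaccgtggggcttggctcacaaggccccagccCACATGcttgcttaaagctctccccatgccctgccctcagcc
Tnni2 (chr1:207024240-207024489): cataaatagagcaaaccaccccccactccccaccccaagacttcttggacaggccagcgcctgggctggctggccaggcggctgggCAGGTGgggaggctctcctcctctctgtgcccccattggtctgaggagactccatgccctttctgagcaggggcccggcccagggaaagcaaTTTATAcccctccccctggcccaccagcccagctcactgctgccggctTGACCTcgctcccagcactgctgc

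An E-box stood in all 4 windows, and 65.5% of the 33469 promoter windows of this length hold one. The MCAT element was found in the Tnnt2 window shown, 83 bases before the start at its first base, and in 12.1% of all windows. Another annotated Tnnt2 start has a window that is not shown, with an E-box and no MCAT element. The thyroid hormone half-site was found in the Tnni2 window, on the minus strand, and in 14.1% of all windows. The TATA box was found for Tnnt1 and, on the minus strand, for Tnni2, and in 12.9% of all windows. MEF2 was found in 2.96%. No motif overlaps another in these windows. Such matches describe letters only. In the same annotation, troponin I and T genes lie beside one another in 3 pairs: Tnni3 and Tnnt1 with 0 protein-coding genes between them, Tnni1 and Tnnt2 with 1 (Lad1), and Tnni2 and Tnnt3 with 2 (Lsp1 and Prr33).

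None of the fast troponins differed between the groups past the threshold. Tnnc2, the calcium sensor of fast fibres, had intensities of 36221, 39875, 28731 and 30089 on hyperthyroid 1, 2, 3 and 5, against 39664, 33607, 31195 and 28798 on control 7, 8, 9 and 11. The groups overlapped over nearly their whole range, with a highest-to-lowest ratio of 1.39 over the 8 arrays. The log2 difference was 0.02 ± 0.16 (SE; 95% interval -0.33 to 0.36; adjusted p = 0.979 in limma), and 0.07 ± 0.15 without hyperthyroid 5 (adjusted p = 0.865). On the linear scale that interval spans 0.793-fold to 1.29-fold.

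Tnni2, the fast inhibitory subunit, had intensities of 20211, 25074, 21893 and 26173 on hyperthyroid 1, 2, 3 and 5. The controls 7, 8, 9 and 11 had 31597, 26998, 27280 and 25506. Hyperthyroid 1, 2 and 3 lay below every control, and hyperthyroid 5 lay above control 11. The mean was 23338 ± 2764 for hyperthyroid and 27845 ± 2619 for control (SD, 4 arrays each). The log2 difference was -0.26 ± 0.14 (SE; 95% interval -0.56 to 0.05; adjusted p = 0.491 in limma). Without hyperthyroid 5 it was -0.32 ± 0.12 (95% interval -0.58 to -0.05; unadjusted p = 0.0244, adjusted p = 0.253 in limma).

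Tnnt3, the fast tropomyosin-binding subunit, followed the same order among the hyperthyroid arrays. Its brightest probe set had intensities of 19268, 24633, 20844 and 26709 on hyperthyroid 1, 2, 3 and 5, against 29461, 27737, 26089 and 23781 on control 7, 8, 9 and 11. Hyperthyroid 1 and 3 lay below every control. The log2 difference was -0.24 ± 0.15 (SE; 95% interval -0.56 to 0.09; adjusted p = 0.553 in limma), and -0.31 ± 0.13 without hyperthyroid 5 (95% interval -0.59 to -0.04; unadjusted p = 0.0280, adjusted p = 0.264 in limma). A much dimmer Tnnt3 probe set ran from 89.2 to 293 in hyperthyroid and from 140 to 313 in control arrays, with a log2 difference of -0.20 ± 0.36 (SE; adjusted p = 0.853 in limma), and -0.44 ± 0.34 without hyperthyroid 5 (adjusted p = 0.567).

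Hyperthyroid 1, 2 and 3, which lay below every control for Tnni2 but not for Tnnc2, were also the arrays whose Gapdh ratio lay above every control. With that ratio as a covariate the log2 difference over all 8 arrays was -0.22 for Tnni2 and -0.17 for Tnnt3 (adjusted p = 0.578 and 0.693 in limma), and its part in the result was not tested further. Of the 9 tested troponin probe sets, 1 (Tnni2) did not overlap between groups without hyperthyroid 5, lower in hyperthyroid, against 6.51% of all tested probe sets in that direction and 14.8% in either. Without hyperthyroid 2 and 5, 2 of the 9 (Tnni2 and the brighter Tnnt3 probe set) lay lower with no overlap, against 10.2% in that direction and 23.7% in either. On all 8 arrays 0 of the 9 did not overlap, against 7.55% in either direction.

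Slow troponins differed more between arrays than between groups. Tnnc1, the calcium sensor of slow fibres and heart, had intensities of 2801, 4168, 2207 and 10175 on hyperthyroid 1, 2, 3 and 5. On control 7, 8, 9 and 11 it had 2763, 3098, 1719 and 2585. Hyperthyroid 5 was 2.44 times the next array, hyperthyroid 2 was the second highest, and the other 2 hyperthyroid arrays lay among the controls. The mean was 4838 ± 3652 for hyperthyroid and 2541 ± 588 for control (SD, 4 arrays each). The log2 difference was 0.70 ± 0.39 (SE; 95% interval -0.16 to 1.55; adjusted p = 0.509 in limma). Without hyperthyroid 5 it was 0.25 ± 0.23 (95% interval -0.24 to 0.74; adjusted p = 0.626), and without hyperthyroid 2 and 5 it was 0.00 ± 0.21.

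Tnni1, the slow inhibitory subunit, had 2 probe sets with the same highest 2 and the same lowest 2 arrays. The brighter stood at 2761, 4063, 1838 and 9140 on hyperthyroid 1, 2, 3 and 5, against 3185, 3562, 2293 and 3436 on control 7, 8, 9 and 11. The dimmer stood at 2767, 3328, 1710 and 7618 on those hyperthyroid arrays, and at 2741, 2821, 2066 and 2917 on those controls. On both, hyperthyroid 5 and then 2 were highest and hyperthyroid 3 was lowest, while the order of the arrays between differed. The brighter probe set gave a log2 difference of 0.27 ± 0.39 (SE; 95% interval -0.58 to 1.12; adjusted p = 0.808 in limma). Without hyperthyroid 5 the sign turned, to -0.17 ± 0.23 (95% interval -0.67 to 0.34; adjusted p = 0.767), and without hyperthyroid 2 and 5 it was -0.45 ± 0.20 (adjusted p = 0.374). The dimmer gave 0.34 ± 0.35, and -0.06 ± 0.20 without hyperthyroid 5 (SE; adjusted p = 0.720 and 0.916 in limma).

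Tnnt1, the slow tropomyosin-binding subunit, spanned the least of the slow genes among controls. It stood at 1934, 2926, 1380 and 4338 on hyperthyroid 1, 2, 3 and 5, against 2161, 2205, 1815 and 1991 on control 7, 8, 9 and 11. The controls thus lay within a ratio of 1.21, hyperthyroid 2 and 5 lay above all of them, and hyperthyroid 3 lay below. The log2 difference was 0.24 ± 0.28 (SE; 95% interval -0.38 to 0.87; adjusted p = 0.753 in limma), and -0.04 ± 0.20 without hyperthyroid 5 (95% interval -0.48 to 0.40; adjusted p = 0.949).

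**Figure D2:**
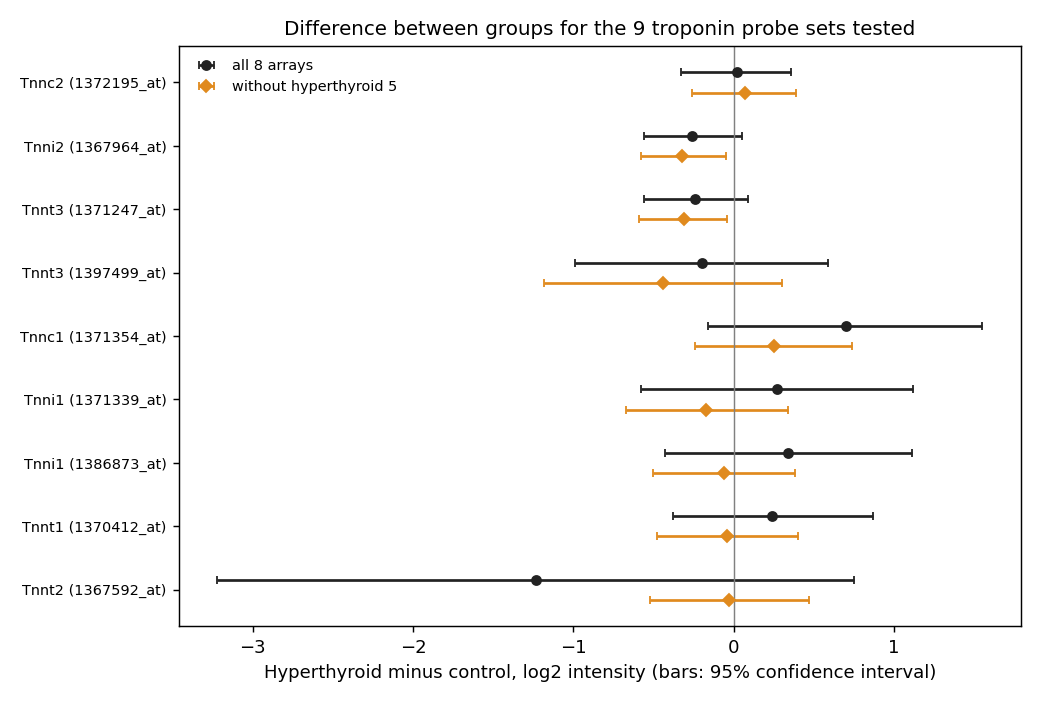
Hyperthyroid minus control difference in log2 intensity for the 9 troponin probe sets tested, with 95% confidence intervals, over all 8 arrays (black circles) and without hyperthyroid 5 (orange diamonds). On all 8 arrays every interval crosses 0; without hyperthyroid 5 those of Tnni2 and of the brighter Tnnt3 probe set do not (-0.58 to -0.05 and -0.59 to -0.04), and the wide interval of Tnnt2 (-3.22 to 0.75) narrows to -0.52 to 0.47.

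By their brightest probe sets, the 3 slow genes ranked the arrays alike at both ends. Hyperthyroid 5, then hyperthyroid 2, then control 8 headed each, and hyperthyroid 3 and control 9 took the last 2 places in each. The slow myosin light chains Myl2 and Myl3 gave the same first 3 and last 2 arrays, while the slow myosin heavy chain Myh7 had control 7 after hyperthyroid 5 and 2, and the slow calcium pump Atp2a2 had hyperthyroid 1 there. Over the control geometric mean, hyperthyroid 5 stood at 4.10-fold for Tnnc1, 2.97-fold for Tnni1 and 2.13-fold for Tnnt1. These folds come from different probe sets on a single array, and whether the subunits differed in proportion was not tested. Fast subunits on the same array stood at 0.910-fold for Tnnc2, 0.943-fold for Tnni2 and 1.00-fold for Tnnt3. Of all 18625 tested probe sets, 0.741% lay more than 2-fold above every other array on hyperthyroid 5, and these included Tnnc1 and both Tnni1 probe sets but not Tnnt1 (1.48-fold above the next array).

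The ratio of the slow to the fast isoform of each subunit was taken on each array as a log2 value from the control mean, which removes the scale of the probe sets. For troponin C (Tnnc1 over Tnnc2) it was 0.04, 0.48, 0.03 and 2.17 on hyperthyroid 1, 2, 3 and 5, against -0.11, 0.30, -0.45 and 0.26 on control 7, 8, 9 and 11. For troponin I (Tnni1 over Tnni2) it was 0.30, 0.55, -0.40 and 1.66 on the hyperthyroid arrays, against -0.14, 0.25, -0.40 and 0.28 on the controls. Hyperthyroid 1, 2 and 5 lay above every control for troponin I, and hyperthyroid 3 level with the lowest.

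For troponin T (Tnnt1 over Tnnt3) the ratio was 0.39, 0.64, -0.21 and 1.09 on the hyperthyroid arrays, against -0.06, 0.06, -0.13 and 0.13 on the controls. Here too 3 hyperthyroid arrays lay above every control, and hyperthyroid 3 lay below every control. On hyperthyroid 1, by the brightest probe sets, Tnni1 and Tnnt1 were not above the control mean (log2 -0.16 and -0.07), while Tnnc1 was (0.17). The higher troponin I and T ratios of hyperthyroid 1 came from the fast genes, at -0.46 for Tnni2 and -0.47 for Tnnt3. On hyperthyroid 2 and 5 the slow genes were above that mean (0.40 and 1.57 for Tnni1, 0.52 and 1.09 for Tnnt1). Hyperthyroid 1 had a Gapdh ratio of 3.91, and its part in these slow to fast ratios was not tested. The hyperthyroid means were 0.68 ± 1.01 for troponin C, 0.53 ± 0.85 for troponin I and 0.48 ± 0.54 for troponin T, against control SDs of 0.35, 0.33 and 0.12 around 0 (n = 4 each). None of the 3 ratios differed past the spread between arrays, with two-sided exact permutation p = 0.286, 0.257 and 0.171 for C, I and T, all 0.286 after Benjamini-Hochberg adjustment over the 3. The smallest p that 4 against 4 arrays allow is 0.0286. Without hyperthyroid 5 the means were 0.18, 0.15 and 0.28 (exact permutation p = 0.571, 0.514 and 0.343), and 3 against 4 arrays cannot go below 0.0571.

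**Figure D3:**
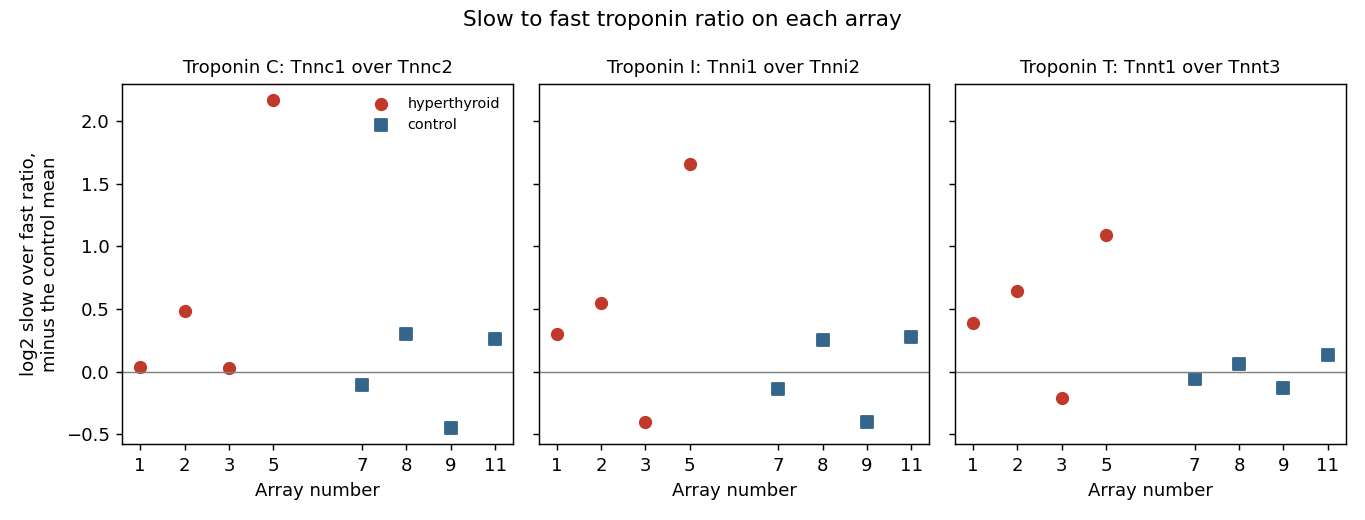
Slow over fast ratio of troponin C, I and T on each array (log2, minus the control mean), with hyperthyroid arrays as red circles on the left and control arrays as blue squares on the right of each panel. Hyperthyroid 5 is highest in all 3 panels (2.17, 1.66 and 1.09), and hyperthyroid 3 lies at 0.03, -0.40 and -0.21.

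Of the 3 cardiac troponin probe sets, 2 lay below the filter level by mean. The brighter Tnnt2 probe set had intensities of 224, 216, 146 and 6.76 on hyperthyroid 1, 2, 3 and 5, against 178, 226, 234 and 154 on control 7, 8, 9 and 11. On 7 arrays it stayed within a ratio of 1.60, and on hyperthyroid 5 it was below the filter level, so that only a bound can be given: with hyperthyroid 5 set to that level, the lowest other array was at least 5.18-fold higher. The log2 difference over all 8 arrays, which takes in that dim value as measured, was -1.23 ± 0.91 (SE; 95% interval -3.22 to 0.75; adjusted p = 0.612 in limma). It was -0.65 with 32 added to every intensity before log2, and -0.03 ± 0.23 without hyperthyroid 5 (95% interval -0.52 to 0.47; adjusted p = 0.970). Of all tested probe sets, 3.21% lay more than 2-fold below every other array on hyperthyroid 5.

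The second Tnnt2 probe set ran from 5.75 to 26.1 in hyperthyroid and from 1.58 to 22.5 in control arrays, below the filter level throughout, and was not tested. Tnni3, the cardiac inhibitory subunit, stood at 11.8, 58.0, 32.8 and 13.2 on hyperthyroid 1, 2, 3 and 5, against 8.96, 16.9, 3.26 and 12.2 on control 7, 8, 9 and 11. Only hyperthyroid 2 and 3 exceeded the filter level, by mean signal Tnni3 was not tested, and values this dim carry little order. Among heart markers that passed the filter, Myh6, the alpha cardiac myosin heavy chain, stood at 378, 427, 237 and 35.4 on hyperthyroid 1, 2, 3 and 5, against 348, 192, 197 and 151 on control 7, 8, 9 and 11. Myl4, an atrial and embryonic myosin light chain, stood at 528, 499, 427 and 254 on those hyperthyroid arrays, against 550, 497, 462 and 425 on those controls. Both were lowest on hyperthyroid 5, as Tnnt2 was. Nkx2-5, which also passed, was not. It stood at 47.95 on hyperthyroid 5, above hyperthyroid 3 (29.79), control 9 (42.06) and control 11 (45.41). Of the markers below the filter, Myl7 stayed at 2.46 to 4.25 in hyperthyroid and at 1.54 to 28.5 in control arrays, and Nppa at 4.11 to 25.9 and 2.21 to 56.9. Nppb, also below it by mean, was highest on hyperthyroid 5 (63.60, against at most 36.85 elsewhere). Of the 9 heart markers, 8 were on the array and 3 passed the filter. The summed intensity of all 8, with those below the filter, was 440.0 to 1061 in hyperthyroid and 719 to 1155 in control arrays. The part of the heart markers in the Tnnt2 and Tnni3 signal was not tested.

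Tnnt2 was low on hyperthyroid 5 together with genes of developing and extraocular muscle. Myh8, the neonatal myosin, stood at 54.2 on it, against 7599 to 12343 on the other arrays, and Myh3, the embryonic myosin, at 165, against 6412 to 15954. The myogenic factors did not share this: Myog stood at 164 on hyperthyroid 5 (101 to 245 elsewhere) and Myod1 at 545 (409 to 684 elsewhere). Tnni1 and Tnnt2, neighbours on chromosome 13 and shown above, therefore departed in opposite directions on that array.

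Among genes that are no troponins, the closest patterns were found by the root mean square difference of log2 intensity from the control mean over the 8 arrays, for the 3 tested troponins with the largest SD. This is a description, in which hyperthyroid 5 weighs most. Nearest to Tnnc1 were Myoz2, a Z-disc calcineurin-binding protein of slow fibres and heart (0.18), Thbs4, a matrix thrombospondin (0.20), and Myh7 (0.22), all of 10446 genes. Nearest to Tnni1 were Hspb7, a small heat shock protein of muscle (0.25), the Z-disc protein Actn2 (0.26) and Myoz2 (0.27). On hyperthyroid 5 these genes stood at 4.32-fold the control geometric mean for Myoz2, 5.63-fold for Myh7, 2.15-fold for Actn2 and 1.88-fold for Hspb7. Nearest to Tnnt2 were Sbspon (0.29), the synaptotagmin Syt4 (0.32) and the adenylate kinase Ak4 (0.33), all of them below the filter level on hyperthyroid 5. Between troponins, Tnni1 and Tnnt1 differed by 0.22, and Tnni1 and Tnnc1 by 0.32.

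**Figure D4:**
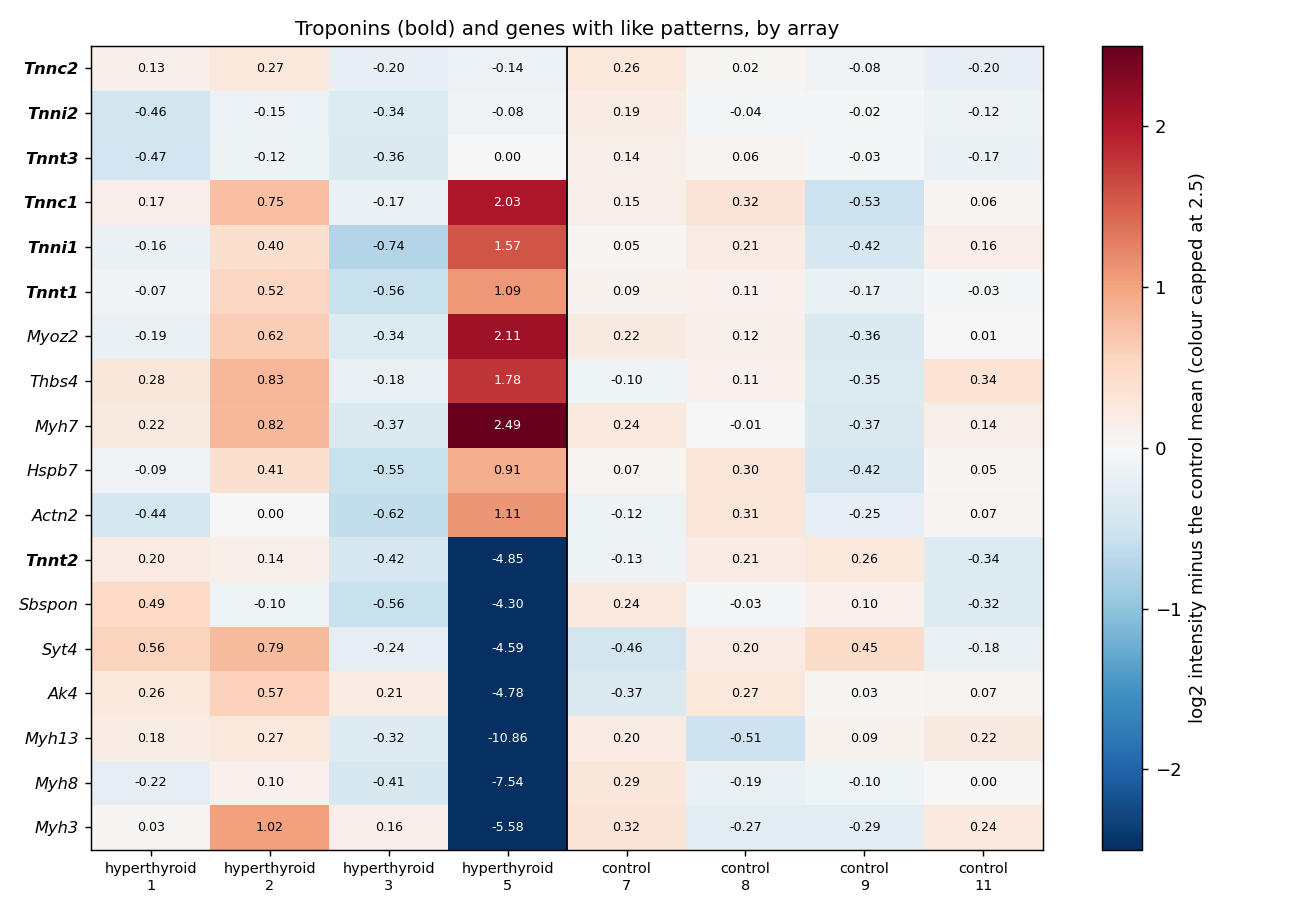
Log2 intensity from the control mean (numbers and colour) of the tested troponin genes, in bold, and of genes with like patterns, together with 3 developmental and extraocular myosins, in rows, on the 4 hyperthyroid arrays (left) and the 4 control arrays (right). Hyperthyroid 5 reads 2.03, 1.57 and 1.09 for Tnnc1, Tnni1 and Tnnt1 and -4.85 for Tnnt2 (from a signal below the filter level), while the fast troponins stay between -0.14 and 0.00 on it.

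Partners of troponin on the thin filament did not pass the test either. Of 22 genes listed (tropomyosins, actins, nebulin, capping and length-setting proteins), 19 were tested, with 6 higher and 13 lower in hyperthyroid, 0 past the threshold and a median log2 difference of -0.04, beside 0.01 over all 10446 genes. Over all 10446 genes, 5344 were higher and 5102 lower, with 0 past the threshold. The smallest p of the thin filament list belonged to Tpm3, a tropomyosin gene with a slow-fibre form among its products. It had intensities of 2579, 2339, 2059 and 2187 on hyperthyroid 1, 2, 3 and 5, against 2114, 1335, 1405 and 1322 on control 7, 8, 9 and 11. Unlike the slow troponins, Tpm3 was not highest on hyperthyroid 5. Hyperthyroid 3 lay below control 7, and apart from control 7 no control reached the hyperthyroid range. The log2 difference of Tpm3 was 0.59 ± 0.17 (SE; adjusted p = 0.277 in limma), and 0.61 ± 0.17 without hyperthyroid 5 (adjusted p = 0.142).

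Fibre type and calcium handling genes numbered 25, of which 23 were tested, with 7 higher and 16 lower, 0 past the threshold and a median of -0.14. Pln, phospholamban, the inhibitor of the slow-fibre calcium pump, had the smallest p. It stood at 648, 950, 826 and 161 on hyperthyroid 1, 2, 3 and 5, against 1638, 1105, 1195 and 1534 on control 7, 8, 9 and 11. The groups thus did not overlap for Pln, as was so for 7.55% of all tested probe sets in either direction. Its log2 difference was -1.33 ± 0.45 (SE; adjusted p = 0.332 in limma), and -0.76 ± 0.17 without hyperthyroid 5 (adjusted p = 0.0949). Pln was lowest on hyperthyroid 5, the array on which the slow troponins were highest.

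Transcriptional regulators of the fast and slow programmes numbered 26, of which 22 were tested, with 16 higher and 6 lower, 0 past the threshold and a median of 0.07. Tead4, a TEAD factor, had the smallest p, at 76.7, 119, 71.4 and 195 on hyperthyroid 1, 2, 3 and 5, against 16.7, 83.7, 30.5 and 24.6 on control 7, 8, 9 and 11. Only control 8 reached into the hyperthyroid range, and the log2 difference was 1.73 ± 0.51 (SE; adjusted p = 0.288 in limma) and 1.44 ± 0.55 without hyperthyroid 5 (adjusted p = 0.248). Control 7 and 11 lay below the filter level of 28.2 for Tead4, so the size of these differences is imprecise. Without hyperthyroid 5, 4 thin filament genes were higher and 15 lower, 14 fibre type genes were higher and 9 lower, so that the balance of that list turned round, and 12 regulators were higher and 10 lower. The medians of the thin filament, fibre type and regulator lists were then -0.08, 0.04 and 0.10, beside 0.02 over all genes, and 0 members of any of them passed. Over all 10446 genes, 5426 were then higher and 5020 lower, and 13 passed. The smallest p of the thin filament list was then that of Tmod3, a tropomodulin that caps pointed ends, at 350, 294 and 416 on hyperthyroid 1, 2 and 3 and 645 on hyperthyroid 5, against 536 to 611 on the controls. Its log2 difference was -0.74 ± 0.15 without hyperthyroid 5 (SE; adjusted p = 0.0788 in limma) and -0.52 ± 0.22 with it. The smallest p of the regulators was then that of Vgll2, a TEAD cofactor, which stood at 90.5, 82.9 and 112 on hyperthyroid 1, 2 and 3 and at 312 on hyperthyroid 5, against 158 to 220 on the controls. Its log2 difference was -0.99 ± 0.22 without hyperthyroid 5 (adjusted p = 0.0929 in limma) and -0.56 ± 0.37 with it.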

How the data were processed

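Total RNA of extraocular muscle was measured on Affymetrix GeneChip arrays. The authors deposited linear intensities, and the submitters' processing notes name GCOS, with no version. The arrays shared 1 trimmed mean (2% at each end), so the authors had scaled the intensities before deposit. Detection calls are not given in the sources used here. Of 31099 probe sets, 57 manufacturer's controls were left out. Symbols came from the platform annotation, and all 11 troponin probe sets matched a RefSeq gene by identifier.

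Intensities were set to at least 1 and taken to log2. A difference of dim probe sets is imprecise on this scale, and the number of arrays limits the precision. For the upper 60% by mean, groups were compared in limma 3.58.1 under R 4.3.3 (mean-variance trend, two-sided, Benjamini-Hochberg over 18625 probe sets). The brightest probe set stood for a gene. Ratios were compared with exact permutation tests (scipy 1.17.1). The fit was tested on simulated data. The members, lists, naming rule and alternatives were chosen with earlier results of these data known. Named were all troponins, the member of each list with the smallest p where none passed, and the 3 nearest patterns. Genes used to describe single arrays, the slow light chains and calcium pump and the printed promoters were chosen after their values were seen.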

Additional observations from a re-analysis of the deposited data

Results flagged for a closer look

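In 28 groups of 4 arrays (11 troponin probe sets and 3 ratios in each of the 2 groups), 1 held an array far from the others: the brighter Tnnt2 probe set on hyperthyroid 5, at an intensity of 6.76, against 146 to 224 on the other hyperthyroid arrays. Its gap to the nearest array was 0.877 of the range of log2 values, above Dixon's 95% critical value for 4 arrays. The value lies below the filter level of 28.2, and with it set to that level, an alternative chosen after seeing the data, the gap was 0.792 of the range, under the critical value. Chance marks about 1 group in 20.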

How the results depend on the processing

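Over the alternatives run (another scaling, an added constant, other filters and limma settings, the Gapdh ratio as a covariate, the mean over probe sets, and arrays left out), 0 troponin probe sets passed the threshold in any. Of 129 recomputed log2 differences of the 7 tested genes, 115 kept their direction. Tnnc2 turned to -0.10 with median centring, which moves the median of all probe sets by -0.12, to -0.02 with array weights, to -0.16 with the Gapdh covariate and to -0.04 without hyperthyroid 2 and 5. Leaving out 1 array at a time it ran from -0.07 to 0.10. Tnni1 turned to -0.09 with array weights and -0.45 without hyperthyroid 2 and 5, and ran from -0.17 (without hyperthyroid 5) to 0.61 with 1 array left out. Tnnt1 turned to -0.05 and -0.32 in those fits and ran from -0.04 (without hyperthyroid 5) to 0.51. Tnni2 stayed between -0.40 and -0.10 and Tnnt3 between -0.41 and -0.12, both nearest 0 after quantile normalization. Tnnc1 ran from 0.00 without hyperthyroid 2 and 5 to 1.12 with the Gapdh covariate (0.25 to 0.98 with 1 array left out). Tnnt2 ran from -2.92 with the Gapdh covariate to -0.03 without hyperthyroid 5, and was -0.65 with 32 added. The ratios of troponin C, I and T ran from 0.18 to 0.90, 0.15 to 0.84 and 0.28 to 0.71 with 1 array left out, lowest without hyperthyroid 5 and highest without hyperthyroid 3, where the exact permutation p of troponin I and T was 0.0571 each, the smallest that design allows. The ratio of troponin I was -0.05 without hyperthyroid 2 and 5. Over all probe sets, 6 passed with array weights, 8 with the Gapdh covariate, 9 without hyperthyroid 2 and 5, and 0 to 29 with 1 array left out (29 without hyperthyroid 5). The causes were not tested. No paired analysis was possible because the groups share no replicate number.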
